A study of Mus musculus with 6 samples.

Results

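*Padi4*, *Ncapd2*, *Hap1* and *Cpne5* are 4 of the 24421 gene symbols in the raw count table of this study, where their levels were lower in mutant than in WT heads. They were chosen by their fold changes in these same libraries, as the largest decreases apart from *E2f1*, so the decreases themselves are described below without a test. RNA was sequenced from heads of E9.0 mouse embryos, in 3 WT and 3 *Snrpb ncc+/-* pools of 2 somite-matched heads each, with the heads of a pool coming from different litters. *Snrpb* encodes a core protein of the spliceosomal ribonucleoprotein particles. The study asked which molecular changes precede the brain and craniofacial malformations of embryos that carry a single working copy of this gene in the neural tube and neural crest. In the mutants, *Wnt1-Cre2* removed the *loxP*-flanked exons 2 and 3 from 1 *Snrpb* allele in the developing brain and the neural crest, and the other cells of the head kept both alleles. The WT pools were labelled SnrpB +/+. Whether they carried the Cre transgene is not given in the sources used here. All pools came from untreated embryos on a mixed CD1 and C57BL/6 background and were taken before defects were visible. Each level is therefore an average over many head cell types, and a smaller share of a cell type cannot be told apart from less RNA per cell.

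The 4 genes belong to unrelated families. Condensins are ring-shaped complexes that fold mitotic chromosomes, and *Ncapd2* encodes a HEAT-repeat subunit that is specific to condensin I. *Padi4* encodes a peptidylarginine deiminase, an enzyme that converts arginine to citrulline in proteins, histones included, and it is best known from neutrophils. *Hap1* encodes huntingtin-associated protein 1, a mainly neuronal adaptor that links cargo to microtubule motors, and *Cpne5* encodes a copine, a protein that binds membrane phospholipids in a calcium-dependent way.

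Between 36378803 and 74909774 reads were counted per library, and levels are given as CPM, counts scaled by TMM to a library of 1000000 reads. Of the 24421 symbols, 15584 passed the filter on low counts, all 4 genes among them. In the comparison of mutants with WT, edgeR placed 1 gene, *A3galt2*, past an adjusted p of 0.05, which is 0.00642% of those tested, and the median log2 fold change of all tested genes was 0.00. *Snrpb* itself had 429.9, 438 and 414 CPM in WT and 436, 412 and 430.3 CPM in mutants, with overlapping groups (adjusted p = 0.99, edgeR). This is a total over all exons, while only exons 2 and 3 are deleted, from 1 allele and in part of the cells. Markers of neural progenitors, cranial neural crest and early neurons were detected in all 6 libraries, as the label of the tissue states. Cardiac and visceral endoderm markers varied among pools, and the cause was not tested. All 8 cardiac genes were higher in mutants (median log2 fold change 0.67), and all 6 visceral endoderm genes were lower (median -0.85). None of them had an unadjusted p under 0.05 by edgeR. Summed over 8 cardiac genes, the level ran from 17.6 CPM in WT pool 1 to 253 CPM in mutant pool 3, and summed over 6 visceral endoderm genes it was 27.6 CPM in WT pool 1 and between 6.40 and 7.86 CPM elsewhere.

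DESeq2 log2 fold changes of mutants against WT set the membership, among the 28 genes that this tool placed lower past an adjusted p of 0.05, or 0.217% of the 12908 genes it gave an adjusted p. They were -1.24 for *Padi4*, -0.57 for *Ncapd2*, -0.53 for *Hap1* and -0.41 for *Cpne5*. *E2f1*, which was set aside, had -0.42. The next gene outside was *Hist1h2bp*, at -0.38, a histone gene of a family with near-identical copies. The edgeR estimates, used from here on, were -1.24 (SE 0.21), -0.57 (SE 0.14), -0.52 (SE 0.09) and -0.41 (SE 0.09) in the same order. These are not the most negative values in the table: 11 tested genes lay below *Padi4*, 153 below *Ncapd2*, 183 below *Hap1* and 317 below *Cpne5*. Of those 317 genes, 105 had every mutant library below every WT library, against 6.92% of all tested genes. Being taken by a low fold change favours this pattern. Among the 105, 39 also had a mean level over 1 CPM.

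**Figure D1:**
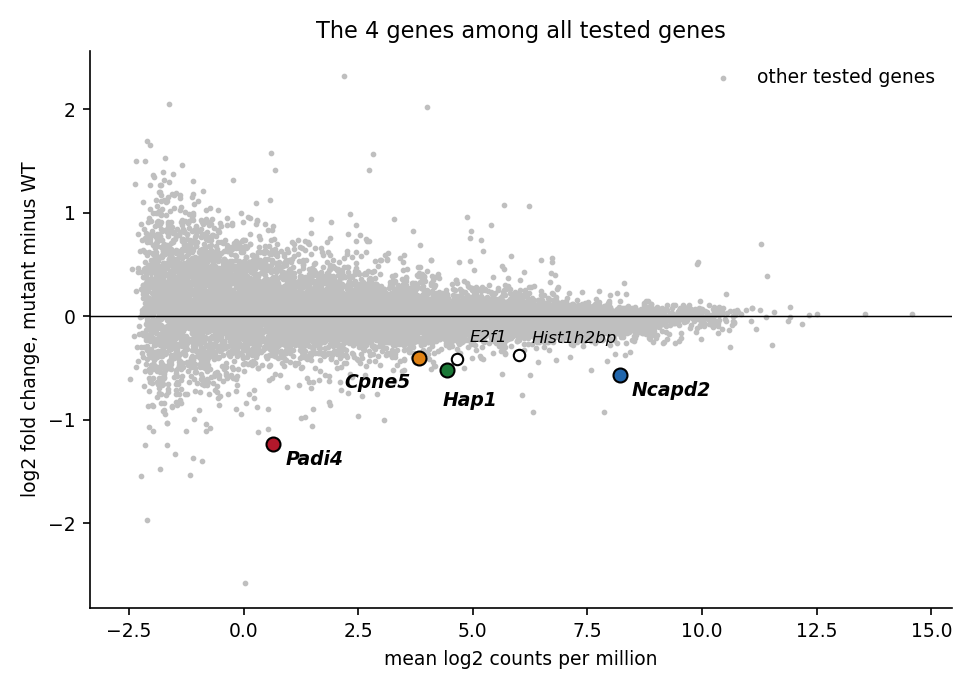
The log2 fold change of mutants against WT (y axis) is plotted against the mean log2 CPM (x axis) for the 15584 tested genes. Coloured points are the 4 genes and open points are *E2f1* and *Hist1h2bp*; *Ncapd2* lies far to the right, at a level that few genes reach, and *Padi4* lies lowest of the 4, at -1.24.

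All 4 genes had every mutant library below every WT library, a pattern found in 6.92% of tested genes, and the choice of the genes fixed it. The highest mutant library lay 46.5% below the lowest WT library for *Padi4*, 18.3% below for *Ncapd2*, 18.8% below for *Hap1* and 15.9% below for *Cpne5*. Mutant means were 42.2%, 67.4%, 69.5% and 75.2% of the WT means in that order. Among WT libraries, pool 3 had the highest level of *Padi4*, *Ncapd2* and *Hap1*, and pool 1 the highest level of *Cpne5*.

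**Figure D2:**
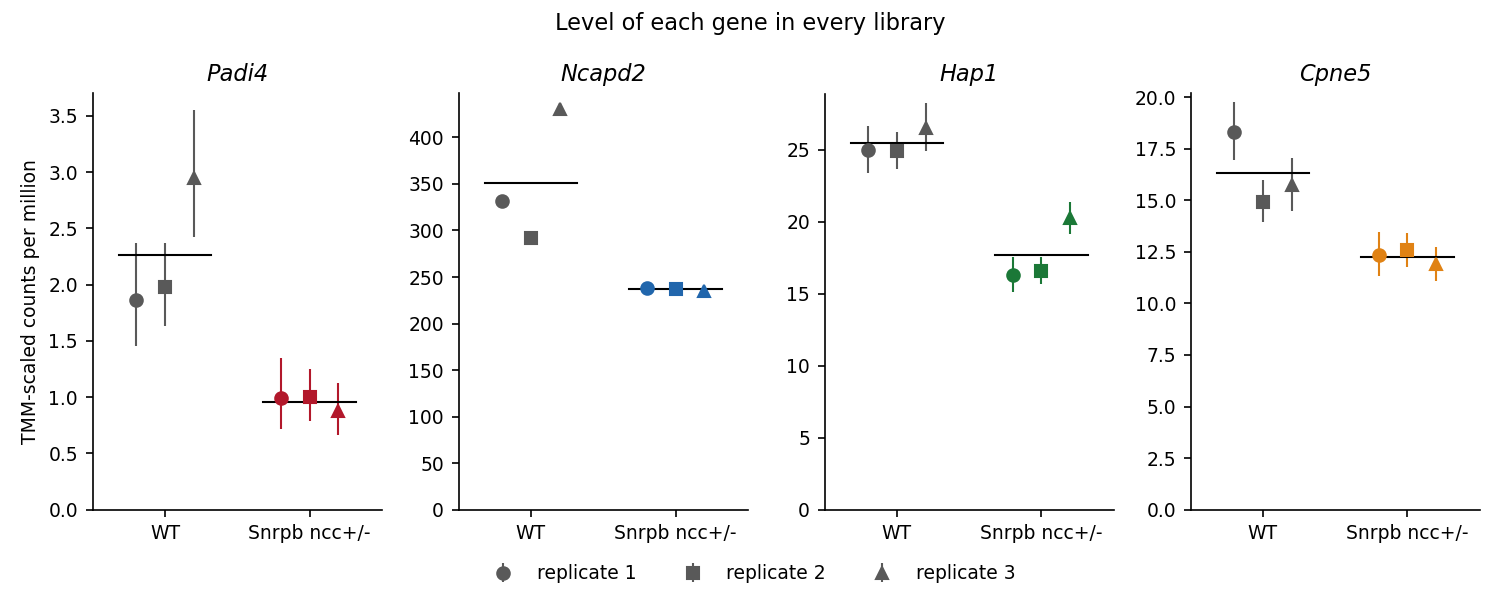
TMM-scaled CPM (y axis, from 0) of each gene in the 3 WT and 3 mutant libraries, with replicate numbers as symbols, group means as lines and exact 95% Poisson intervals, which cover counting error only, as bars. In each panel the mutant libraries lie under the WT libraries, and WT replicate 3 stands highest for *Padi4* and *Ncapd2*.

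*Ncapd2* lies on chromosome 6 (mm10, chr6:125168007-125191701, minus strand, protein coding). It was the most abundant of the 4 genes, and 96.4% of tested genes had a lower mean level. WT pools had 332, 292 and 430.2 CPM (351 ± 71.3, mean ± SD, n = 3) and mutant pools had 238, 237 and 235 CPM (237 ± 1.90, n = 3). The mutant libraries were thus nearly identical, whereas the WT libraries were spread widely. On the log2 scale the SD was 0.01 among mutants, smaller in only 2.29% of tested genes, and 0.29 among WT, where 81.7% of tested genes had a smaller SD. These ranks took no account of level, and counting error adds less to the SD of abundant genes. With 10065 to 18030 reads per library, the exact 95% Poisson intervals of the WT pools, 326 to 338, 287 to 296 and 424 to 437 CPM, did not overlap each other. Without WT pool 3 the log2 fold change was -0.40.

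Each condensin pairs the SMC2 and SMC4 proteins with subunits of its own, NCAPD2, NCAPH and NCAPG in condensin I, and NCAPD3, NCAPH2 and NCAPG2 in condensin II. The 7 genes for the other subunits had a median log2 fold change of -0.08, against 0.00 over all tested genes, and 6 of the 7 were lower in mutants. None passed an adjusted p of 0.05 by edgeR or DESeq2. An unadjusted p under 0.05 with a lower level was found for 2 of them, where 4.09% of all tested genes had this result. Both encode condensin II subunits. *Ncapg2* had 131, 132 and 140.2 CPM in WT and 119, 119 and 125 CPM in mutants (log2 fold change -0.15, SE 0.04, adjusted p = 0.433, edgeR). *Ncapd3*, the condensin II counterpart of *Ncapd2*, had 94.9, 90.1 and 91.0 CPM in WT and 85.0, 85.5 and 83.2 CPM in mutants (-0.12, SE 0.04, adjusted p = 0.465). *Ncaph* and *Ncapg*, which belong to condensin I with *Ncapd2*, had log2 fold changes of -0.08 (SE 0.05) and -0.06 (SE 0.05), and their groups overlapped.

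*Ncapd2* was chosen for its lower mutant level, so a lower ratio to its partners restates that choice. The ratio is given as a description. For every 100 CPM summed over the 7 other subunits there were 23.4, 20.5 and 29.0 CPM of *Ncapd2* in WT and 17.2, 17.3 and 17.1 CPM in mutants. The sum of the 7 partners itself ran from 1417 to 1485 CPM in WT and from 1369 to 1384 CPM in mutants. Per kilobase of annotated exon, the WT level of *Ncapd2* was 56.0 ± 11.4 CPM (SD, n = 3). That was within the spread of *Smc2* (57.4 ± 2.73) and *Ncaph2* (52.1 ± 1.76), below *Smc4* (76.6 ± 3.80), and above *Ncapg* (25.4 ± 1.02) and *Ncaph* (23.9 ± 1.34).

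**Figure D3:**
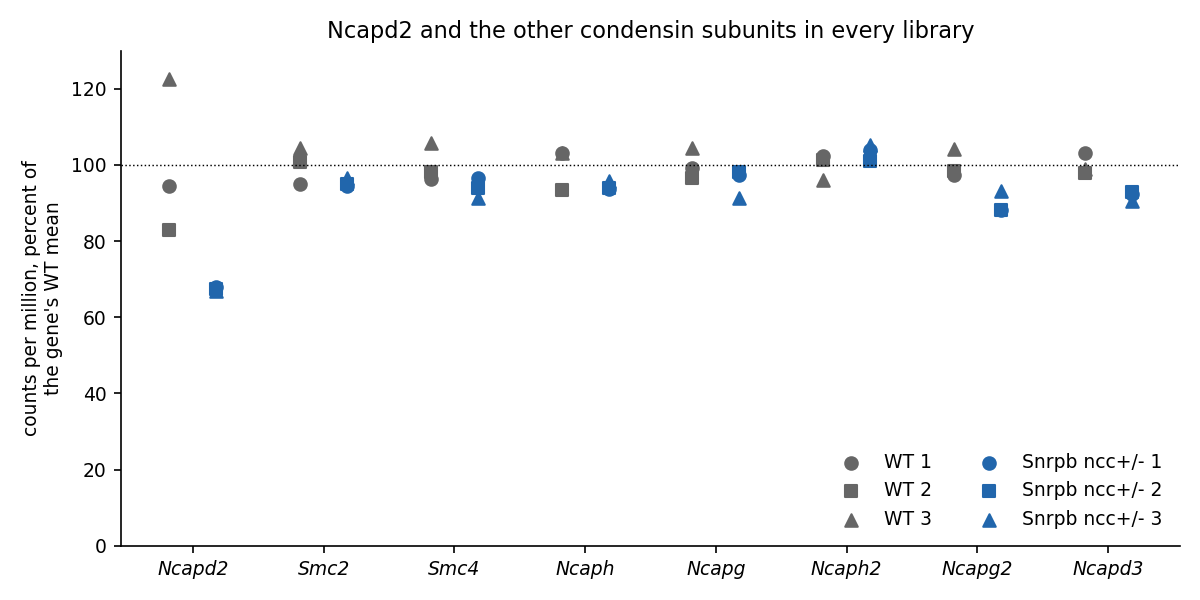
CPM of *Ncapd2* and of the 7 other condensin subunit genes in every library, as percent of the gene's own WT mean (y axis, from 0). Mutant libraries of *Ncapd2* sit together well under all WT libraries, while the mutant libraries of each partner stay near their WT libraries.

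Among 25 other genes of mitotic chromosome structure and segregation, the median log2 fold change was -0.04, 23 were lower and 2 higher, and none passed an adjusted p of 0.05 by edgeR. Lower levels with an unadjusted p under 0.05 were found for 4 of the 25, against 4.09% of all tested genes. *Top2a*, the topoisomerase that untangles DNA in mitosis, had 1063, 1049 and 1160.2 CPM in WT and 929, 921 and 959.5 CPM in mutants (log2 fold change -0.22, SE 0.05, adjusted p = 0.309, edgeR). It was the 1 gene of the list below 0.05 by DESeq2 (adjusted p = 0.0171). *Bub1*, a kinase of the spindle checkpoint, had -0.13 (SE 0.04, adjusted p = 0.437, edgeR), *Aurkb*, the kinase of the chromosomal passenger complex, -0.11 (SE 0.04, adjusted p = 0.481), and *Kif4*, a chromosome-bound kinesin, -0.13 (SE 0.05, adjusted p = 0.582). The mitotic kinase *Cdk1* and its cyclin *Ccnb1* had log2 fold changes of 0.04 and 0.00. The marker of cycling cells *Mki67* varied among libraries of both groups, at 589, 413 and 597 CPM in WT and 390.3, 440.3 and 514 CPM in mutants.

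The start of *Ncapd2* is 100 bases from that of *Mrpl51*, a mitochondrial ribosomal protein gene that runs in the other direction, and *Gapdh* follows downstream on the same strand after a gap of 1539 bases. The 99 bases between the annotated starts of *Ncapd2* and *Mrpl51* (GRCm38, chr6:125191702-125191800, RefSeq promoter sequence, read along the minus strand) are shown because they are the stretch both genes could share. Capitals mark CCAAT in its reverse form ATTGG, and TTTGAA. The 30 bases around the RefSeq start of *Ncapd2* (chr6:125191576-125191605) are shown for the letters TTTGGCGC, in capitals.
Ncapd2 upstream: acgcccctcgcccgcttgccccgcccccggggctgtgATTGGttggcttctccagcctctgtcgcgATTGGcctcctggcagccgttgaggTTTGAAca
Ncapd2 start: ccatctcgttgTTTGGCGCgtatcctgccc

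In windows from 250 bases before to 50 bases after the RefSeq start, searched on both strands, CCAAT occurred in 37.4% of 32851 windows, TTTGAA in 17.9%, and any of TTTGGCGC, TTTCCCGC or TTTCGCGC, letters of the E2F type, in 1.84%. The *Ncapd2* window held 3 CCAAT matches, at -177, -148 and -48 from the RefSeq start, 1 TTTGAA at -123 and 1 TTTGGCGC at -8. In the Gencode annotation *Ncapd2* starts 115 bases further upstream, so the matches at -48 and -8 lie inside the annotated gene. The windows of the other 3 genes held none of these letters. The window of *Cpne5* does not reach its Gencode start, which is 377 bases upstream of the RefSeq start. GC content was 66.3% for *Padi4*, 64.3% for *Ncapd2*, 54.7% for *Hap1* and 74.7% for *Cpne5*, against a median of 52.7% over all windows. These matches describe letters only.

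The next tested genes on either side of *Ncapd2*, *Gapdh* and *Mrpl51*, both had every mutant library below every WT library, a pattern found in 6.92% of tested genes. *Gapdh*, the glycolytic enzyme gene, had 1626, 1578 and 1975 CPM in WT and 1471, 1362 and 1378 CPM in mutants (log2 fold change -0.30, SE 0.09, adjusted p = 0.437, edgeR, and 0.0528, DESeq2). Its libraries stood in an order much like that of *Ncapd2*, with WT pool 3 highest and WT pool 2 lowest among WT. *Mrpl51* had 60.5, 60.6 and 67.2 CPM in WT and 59.0, 56.3 and 59.6 CPM in mutants (-0.11, SE 0.06, adjusted p = 0.645, edgeR). Of 17 tested genes within 200 kb of *Ncapd2*, 5 were lower and 12 higher in mutants, with a median of 0.03. *Vamp1*, a synaptic vesicle protein gene, and *Ing4*, a chromatin reader gene, were higher with an unadjusted p under 0.05, at 0.46 (SE 0.16, adjusted p = 0.468, edgeR) and 0.17 (SE 0.05, adjusted p = 0.437). Both had every mutant library above every WT library, which 8.32% of tested genes showed. Inside *Ncapd2* and on its strand lies *Scarna10*, a small Cajal body RNA gene whose exon overlaps an annotated *Ncapd2* exon, so reads of this stretch may be split between both or lost. It had 8.21, 21.3 and 17.1 CPM in WT and 22.1, 30.1 and 8.95 CPM in mutants, and its groups overlapped. An exon of *Gm28967*, annotated on the same strand and absent from the count table, also overlaps an *Ncapd2* exon. Reads of that stretch may have been counted for *Ncapd2*.

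*Padi4* lies on chromosome 4 (mm10, chr4:140745865-140774236, minus strand, protein coding). It had the largest fold change of the 4 genes and rested on the fewest reads, 68, 116 and 109 in WT and 42, 76 and 58 in mutants. These gave 1.87, 1.98 and 2.95 CPM in WT (2.26 ± 0.594, mean ± SD, n = 3) and 0.995, 1.00 and 0.872 CPM in mutants (0.956 ± 0.072, n = 3). WT pools 1 and 2 lay close together and pool 3 lay higher. The exact 95% Poisson intervals, which cover counting error only, were 1.45 to 2.37, 1.63 to 2.37 and 2.42 to 3.55 CPM in WT, and all 3 mutant intervals lay between 0.663 and 1.34 CPM. Without WT pool 3 the log2 fold change was -1.01. Its mean level was above that of 19.7% of tested genes.

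*Padi4* sits in a cluster with the 4 other deiminase genes, of which *Padi6* was too low to test. The 3 tested members had a median log2 fold change of -0.40, all were lower in mutants, and none had an unadjusted p under 0.05. *Padi1* had 0.412, 0.238 and 0.297 CPM in WT and 0.189, 0.210 and 0.166 CPM in mutants (-0.70, SE 0.34, adjusted p = 0.621, edgeR), the only family member besides *Padi4* whose groups did not overlap. That separation rested on very few reads, 15, 14 and 11 in WT and 8, 16 and 11 in mutants. *Padi3* had 1.04, 1.98 and 1.68 CPM in WT and 1.37, 1.12 and 1.13 CPM in mutants (-0.40, SE 0.24, adjusted p = 0.681). *Padi2* had -0.21 (SE 0.29), with overlapping groups. Per kilobase of exon, *Padi4* in WT (0.468 ± 0.123 CPM, SD, n = 3) was within the spread of *Padi2* (0.491 ± 0.112) and *Padi3* (0.454 ± 0.138), and above *Padi1* (0.084 ± 0.024).

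The tested genes within 200 kb of *Padi4* numbered 7, all lower in mutants, with a median of -0.21, and none had an unadjusted p under 0.05. The family members account for 3 of them. *Rcc2*, the next tested gene downstream and a chromatin-bound regulator of mitosis, had 689.6, 639 and 631 CPM in WT and 639.5, 645 and 657 CPM in mutants (-0.01, SE 0.04). *Arhgef10l* and *Sdhb*, also within the window, had -0.04 (SE 0.05) and 0.00 (SE 0.04). *Gm13032*, a processed transcript with 6 to 18 reads per library, had -0.64 (SE 0.43), with overlapping groups.

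The *Padi4* window was the only one of the 4 genes with TATAAA before the RefSeq start, at -31 to -26, letters found in 13.6% of all windows. The 30 bases around it (GRCm38, chr4:140774217-140774246, minus strand, RefSeq) are shown with TATAAA in capitals. In the Gencode annotation the gene starts 33 bases further upstream, so TATAAA itself lies inside that annotated gene, after its start.
Padi4 TATAAA: ctcgcctggcacTATAAAggaaccagccca

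Leukocytes are the cells best known for *Padi4*, and their markers were at low levels in these heads. Of 12 myeloid and leukocyte markers 6 passed the filter, with a median log2 fold change of -0.06 and no unadjusted p under 0.05. *Elane*, a defining neutrophil gene, was at 0 in 4 libraries and at most 0.054 CPM in the others. *Mpo* and *Csf3r*, also on the list, were detected in every library, at 0.255 to 0.467 and 0.181 to 0.368 CPM. Summed over the 12 markers, the level was 3.93, 2.64 and 1.65 CPM in WT and 3.39, 2.42 and 1.53 CPM in mutants. The groups overlapped, and the sums lay in the same low range as *Padi4* itself. The part of leukocytes in the *Padi4* difference was not tested.

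*Hap1* lies on chromosome 11 (mm10, chr11:100347327-100356128, minus strand, protein coding). WT pools had 25.0, 24.9 and 26.5 CPM (25.5 ± 0.920, mean ± SD, n = 3) and mutant pools had 16.3, 16.6 and 20.2 CPM (17.7 ± 2.19, n = 3). Here the WT libraries lay close together, with a log2 SD of 0.05 that was smaller in 21.1% of tested genes. Mutant pool 3 stood above the other mutant pools, and leaving it out gave a log2 fold change of -0.64. Between 688 and 1464 reads were counted per library.

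The 17 genes listed as partners of *Hap1* encode huntingtin, kinesin and dynactin subunits, trafficking adaptors, and receptors and cargo it is known to bind. All were tested. Their median log2 fold change was -0.01, with 10 lower and 7 higher, and none passed an adjusted p of 0.05 by edgeR or DESeq2. *Htt*, the huntingtin gene, had -0.15 (SE 0.14), and *Ahi1*, whose product forms a stable complex with HAP1, had 56.3, 44.4 and 50.6 CPM in WT and 46.4, 46.4 and 42.3 CPM in mutants (-0.16, SE 0.08, adjusted p = 0.65, edgeR). Both had overlapping groups. *Sort1*, a sorting receptor for neurotrophins, had 115, 114 and 114 CPM in WT and 103, 107 and 109 CPM in mutants (-0.11, SE 0.04, adjusted p = 0.503, edgeR). It was the 1 gene of the 17 with an unadjusted p under 0.05, a result that 4.09% of all tested genes had in this direction.

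Early neuron markers were lower in mutants for 11 of 12 genes, with a median log2 fold change of -0.34, and *Elavl3* alone had an unadjusted p under 0.05 (-0.71, SE 0.28, adjusted p = 0.55, edgeR). Summed over the 12 markers, the level was 171, 132 and 144 CPM in WT and 123, 136 and 121 CPM in mutants, so the groups overlapped. WT pool 1 had the highest sum, of which *Tubb3* alone gave 102 CPM. *Hap1* in that pool was level with WT pool 2. The part of neuron numbers in the *Hap1* difference was not tested.

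Around *Hap1*, 11 genes within 200 kb were tested, 7 lower and 4 higher, with a median of -0.04. The next tested genes were *Eif1* on the downstream side, a translation initiation factor gene (0.01, SE 0.11), and *Jup* on the upstream side, the plakoglobin gene (-0.02, SE 0.08). *Acly*, which encodes ATP citrate lyase, had 596, 632 and 615 CPM in WT and 594, 559.6 and 568 CPM in mutants (-0.10, SE 0.04, adjusted p = 0.547, edgeR), and no other gene of the window had an unadjusted p under 0.05. The RefSeq table held 2 windows for *Hap1*, and both had TATAAA after the start rather than before it.

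*Cpne5* lies on chromosome 17 (mm10, chr17:29155556-29238167, minus strand, protein coding). An exon of *AC162182.2*, annotated on the other strand and absent from the count table, overlaps a *Cpne5* exon. The strand setting of the counts is not known, so reads of that stretch may have been counted for *Cpne5*. WT pools had 18.3, 14.9 and 15.7 CPM (16.3 ± 1.75, mean ± SD, n = 3) and mutant pools had 12.4, 12.6 and 11.9 CPM (12.3 ± 0.349, n = 3). WT pool 1 was highest, and leaving it out gave a log2 fold change of -0.32. As for *Ncapd2*, the spread was smaller among mutants than among WT, with log2 SDs of 0.04 and 0.15. Between 522 and 955 reads were counted per library.

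Of the 8 other copine genes 6 were tested, with *Cpne6* and *Cpne9* too low, and their median log2 fold change was 0.03, with 3 lower and 3 higher. None passed an adjusted p of 0.05 by edgeR or DESeq2. Those with an unadjusted p under 0.05 were both higher in mutants, where 4.34% of all tested genes had this result. *Cpne1* had 144, 149.7 and 137 CPM in WT and 152, 158 and 153 CPM in mutants (0.10, SE 0.04, adjusted p = 0.558, edgeR). *Cpne7* had 4.53, 4.51 and 4.08 CPM in WT and 4.95, 5.25 and 5.49 CPM in mutants (0.26, SE 0.11, adjusted p = 0.553, edgeR). In both, every mutant library lay above every WT library, which 8.32% of tested genes showed. *Cpne3* and *Cpne2* were lower, at -0.14 (SE 0.07) and -0.13 (SE 0.09), with overlapping groups. Per kilobase of exon, *Cpne5* in WT (1.20 ± 0.129 CPM, SD, n = 3) was far below *Cpne1* (31.9 ± 1.37) and *Cpne3* (8.76 ± 0.681), and above *Cpne7* (0.831 ± 0.048) and *Cpne8* (0.753 ± 0.023).

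**Figure D4:**
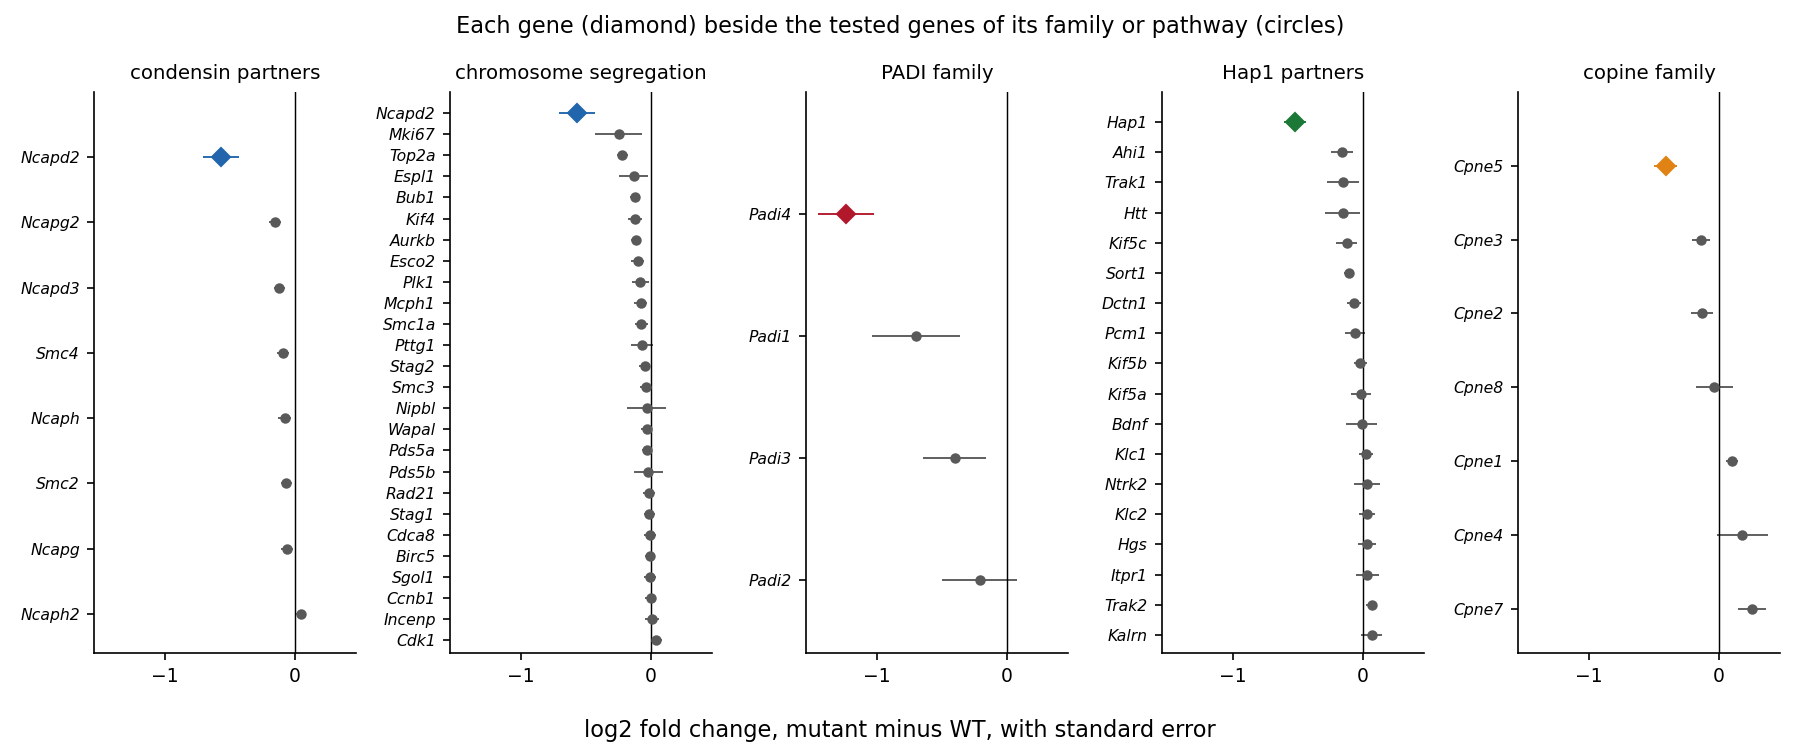
Log2 fold change of mutants against WT with its standard error (x axis) for each of the 4 genes (diamonds) and the tested genes of its family or pathway list (circles), ordered by value. The lists lie near 0 apart from the deiminase genes, whose median is -0.40.

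Neural progenitor markers were lower for 11 of 12 genes (median -0.12, no unadjusted p under 0.05). Summed, they were at 934, 743 and 776 CPM in WT and 755, 739 and 733 CPM in mutants. WT pool 1 was thus highest for these markers and for *Cpne5*, and the groups of the summed markers overlapped. Markers of cranial neural crest, the other main lineage that carried the deletion, had a median of 0.02, with 5 lower and 7 higher and no unadjusted p under 0.05. The part of cell composition in the *Cpne5* difference was not tested.

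Within 200 kb of *Cpne5*, 10 genes were tested, 2 lower and 8 higher, with a median of 0.06. *Cdkn1a*, the next tested gene downstream, encodes the cyclin-dependent kinase inhibitor p21 and lies on the other strand after a gap of 54828 bases. It had 2.20, 1.00 and 1.22 CPM in WT and 5.35, 7.84 and 8.29 CPM in mutants (log2 fold change 2.32, SE 0.31, adjusted p = 0.182, edgeR, and 4.68e-14, DESeq2). Its groups did not overlap and the direction was opposite to that of *Cpne5*. *Ppil1*, the next tested gene upstream and a splicing-associated cyclophilin gene, had 114, 115 and 124 CPM in WT and 132, 111 and 122 CPM in mutants (0.04, SE 0.07). *Mtch1*, a mitochondrial carrier homologue gene, was the other gene with an unadjusted p under 0.05 (0.12, SE 0.05, adjusted p = 0.554, edgeR).

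**Figure D5:**
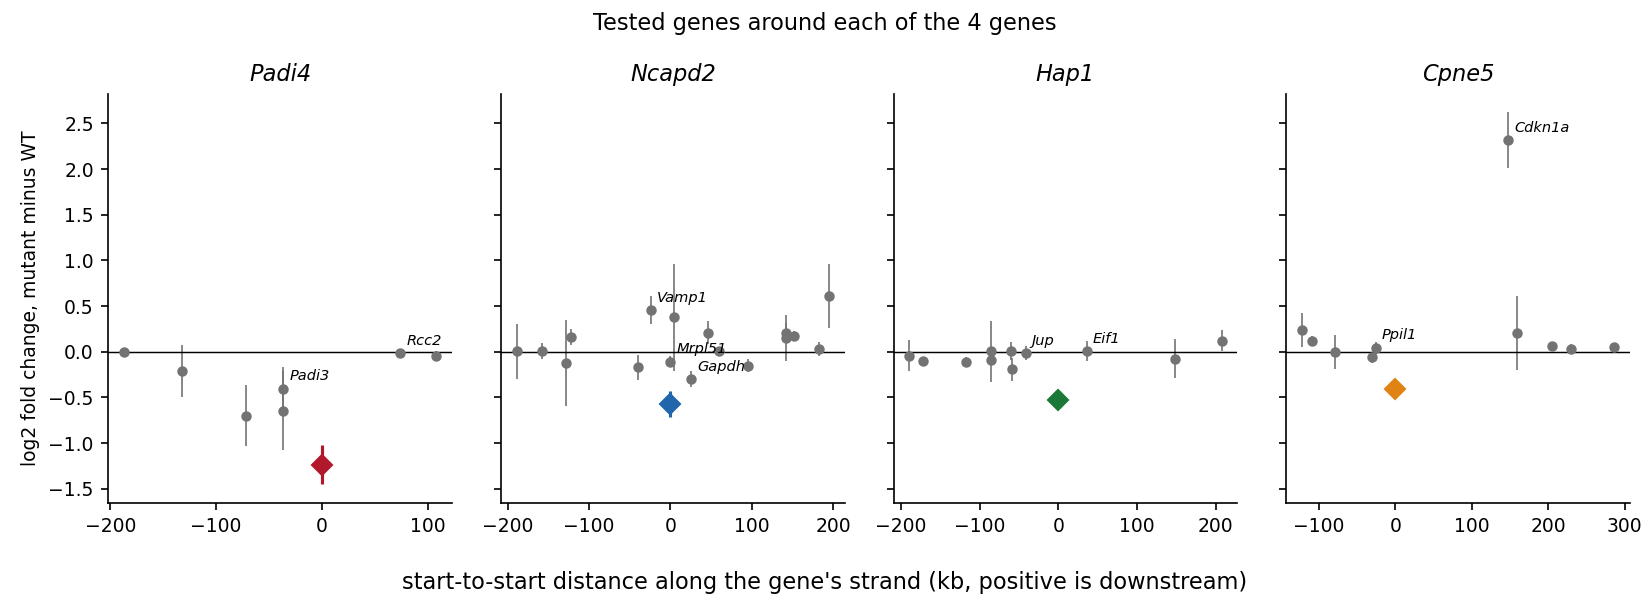
Log2 fold change of mutants against WT with its standard error (y axis) for tested genes near each of the 4 genes, against the start-to-start distance in kb along the gene's strand (x axis). Diamonds mark the 4 genes; most neighbours lie near 0, *Gapdh* at -0.30 lies just downstream of *Ncapd2*, and *Cdkn1a* at 2.32 lies far above 0 downstream of *Cpne5*.

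Taking all 4 surroundings, 45 neighbours were tested, 21 lower and 24 higher, with a median log2 fold change of 0.01. All 4 genes are on the minus strand, as are 49.7% of tested genes with a known strand. Per kilobase of exon in WT, *Ncapd2* stood highest of the 4 at 56.0 CPM, followed by *Hap1* at 6.77 ± 0.244, *Cpne5* at 1.20 ± 0.129 and *Padi4* at 0.468 ± 0.123 CPM (SD, n = 3). Each neighbouring pair in this order differed by more than the spread of its libraries, and the same order held in mutants, at 37.8, 4.70, 0.904 and 0.198 CPM.

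The 4 profiles over the 6 libraries were compared after the mean log2 level of each gene was subtracted, by the root mean square difference. *Hap1* and *Cpne5* (0.170) were about as close as *Ncapd2* and *Hap1* (0.174). *Ncapd2* and *Cpne5* followed (0.20), and the pairs with *Padi4* differed by 0.33 to 0.46. All 4 genes were chosen for a lower mutant level, so a shared step between the groups was fixed. The size of that step enters these distances, and it was largest for *Padi4*. The tested genes nearest to *Padi4* were *2310069G16Rik* (0.21), *Masp2* (0.23) and *Otoa* (0.28). Nearest to *Ncapd2* were *Sstr2* (0.08), *Pakap* (0.10) and *Col6a2* (0.11). *Gapdh*, at 0.15, had 21 of 15583 genes closer to *Ncapd2* than itself.

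For *Hap1* the nearest profiles were *Iqcd* (0.08), *Brinp3* (0.09) and *Acss2* (0.10), and for *Cpne5* *AF357426* (0.04), *Crat* (0.04) and *Stmn3* (0.06). *Crat*, the carnitine acetyltransferase gene, was also near in level, with 18.9, 15.1 and 16.2 CPM in WT and 13.5, 13.6 and 12.7 CPM in mutants (-0.33, SE 0.09, adjusted p = 0.433, edgeR). *Acss2*, an acetyl-CoA synthetase gene, had 8.93, 8.29 and 8.87 CPM in WT and 5.97, 6.75 and 7.13 CPM in mutants (-0.39, SE 0.10, adjusted p = 0.422). All 12 genes had groups that did not overlap. That follows from how they were picked, since each resembled a gene whose groups were apart. Several were very low, such as *2310069G16Rik* with 6 to 16 reads per library and *Pakap* with 8 to 17.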

How the data were processed

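Total RNA was depleted of ribosomal RNA, and stranded libraries were sequenced in paired reads. Reads were trimmed, aligned to mm10 with STAR and assigned to Gencode M2 genes by the authors. The paper names HTSeq and the submitters' processing notes name featureCounts, with Trim Galore and MultiQC. The strand setting is not given in the sources used here, so reads of overlapping genes on opposite strands may not be separated. The values deposited are raw, unnormalized counts for 24421 symbols, and all 6 columns matched a labelled sample. Groups follow the labelled genotypes. Nothing says that replicate numbers mark litters, and p-values measure the spread among these pools.

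Counts were fitted with edgeR (version 4.0.16, R 4.3.3): filterByExpr, TMM, robust quasi-likelihood fit and no covariates, tested two-sided with Benjamini-Hochberg adjustment over the 15584 tested genes. The filter left out 8837 genes. CPM are TMM-scaled, and log2 profiles used a prior count of 2. The common biological coefficient of variation was 0.087. DESeq2 (version 1.42.0), the authors' tool, other scalings, other filters, a replicate block and the omission of each library were alternatives. Poisson intervals used scipy (version 1.17.1), and figures used matplotlib (version 3.10.9).

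The 4 genes were chosen by their decreases in these data. The lists (condensin partners, chromosome segregation, PADI family, Hap1 partners, copine family and cell type markers) were written from general knowledge. Members and lists were chosen with earlier results of these data known. A gene of the Hap1 partners list is not reported here, and the list was counted without it. The text names the 4 genes, list genes and neighbours within 200 kb with an unadjusted p under 0.05, the next tested gene on each side, the 3 nearest profiles of each gene, *Snrpb*, *E2f1* and the gene ranked after *Cpne5*. Other genes named, such as family members and cell cycle genes, were added after their values were seen. Positions, strand and exon length come from Gencode M21 on the same build (GRCm38), a later annotation than the authors used, in which 23384 of 24421 symbols matched. Promoter windows come from RefSeq (GRCm38.p6), where all 4 genes matched. Erythroid and endothelial markers were also listed: the 8 tested erythroid genes had a median log2 fold change of -0.11, with *Hba-a1* and *Hba-a2* at 0 in every library, and the 8 endothelial genes 0.00, with *Egfl7* alone at an unadjusted p under 0.05 (0.21, SE 0.08, adjusted p = 0.524, edgeR).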

Additional observations from a re-analysis of the deposited data

How the results depend on the processing

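The 4 genes were lower in mutants under every alternative run. Their choice by these same counts largely fixed that direction, so the ranges below only describe how far the values moved. Over the scalings, filters, DESeq2 and the replicate block, the log2 fold change lay between -1.24 and -1.22 for *Padi4*, -0.57 and -0.55 for *Ncapd2*, -0.53 and -0.51 for *Hap1*, and -0.41 and -0.40 for *Cpne5*. When each library was left out in turn, the ranges were -1.35 to -1.01, -0.69 to -0.40, -0.64 to -0.47 and -0.47 to -0.32. The median of the 4 genes was -0.55 and ran from -0.61 to -0.46, the latter without WT pool 3.

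The count of genes past an adjusted p of 0.05, 1 by edgeR, was 84 by DESeq2 and 11 without the filter on low counts. It ran from 0 to 6 when a library was left out: 6 without WT pool 1, 5 without mutant pool 1, and 0 without WT pool 2, WT pool 3, mutant pool 2 or mutant pool 3. The cause was not tested. Over the 12 alternatives the adjusted p ran from 4.68e-14 to 0.827 for *Cdkn1a*, from 0.0528 to 0.95 for *Gapdh* and from 0.0171 to 0.95 for *Top2a*, lowest by DESeq2 and highest without mutant pool 2, and 2, 0 and 1 of the 12 were under 0.05. The copine median was -0.03 to 0.09, that of the *Hap1* partners -0.03 to 0.01 and that of all neighbours -0.01 to 0.02, so their signs depended on the alternative.

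Deviations of same-numbered WT and mutant libraries from their group means correlated at 0.17, 0.03 and 0.36. Differently numbered pairs ran from -0.25 to 0.09, and WT pool 2 correlated slightly more with mutant pool 1 (0.04). These values do not settle whether the numbers pair the pools. With replicate number as a block, 1 gene passed, and it was not the gene of the unblocked fit, 0 being shared. The median of the 4 genes was then -0.54. With 3 pools a group, precision was limited by their number, and for *Padi4*, with 42 to 116 reads per library, counting error was also wide.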
